A study of Mus musculus with 5 samples.

Results

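The mitosis and anaphase-promoting complex/cyclosome (APC/C) genes described here are 47 mouse genes, taken by name from the machinery of mitosis, of the 21938 protein-coding genes of the GENCODE M21 annotation of mm10. All 47 symbols were found in the annotation, on 16 chromosomes, none of them X or Y. The genes were sorted into 19 APC/C genes (14 subunits, 2 coactivators, 2 E2 enzymes and 1 inhibitor), 17 spindle and kinetochore genes, and 11 other genes, which are mitotic kinases, cyclins, Cdk1 regulators, separase and securin. The classes follow the known function of each gene.

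The question was where the transcription factor Gfi1 and the histone demethylase Lsd1 sit on chromatin in medulloblastoma, a tumor of the cerebellum. MG tumors were made from neural stem cells of the cerebellum, sorted as prominin-1-positive, lineage-negative cells from C57BL/6 pups 5 to 7 days old, transduced with retroviral Myc and Gfi1 and transplanted into immunodeficient NSG mice. Chromatin of 2 MG tumors, numbered 39 (replicate 1) and 41 (replicate 2), was precipitated with an anti-Gfi1 or an anti-Lsd1 antibody, which gave 4 libraries and 4 peak lists. All 4 libraries therefore carry the same Myc and Gfi1 transgenes, Gfi1 was expressed from the retrovirus, and no tumor without Gfi1 was measured by ChIP. The listed input is a pool of MGB (Myc and Gfi1b) tumors with no peak list. Peak lists hold no expression, so the identity of the tumor cells could not be checked against marker genes.

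The APC/C is a ubiquitin ligase that marks securin, B-type cyclins and other mitotic proteins for destruction, and it needs a coactivator, Cdc20 or Fzr1, to pick its substrates. The spindle checkpoint holds Cdc20 inactive until the kinetochores of all chromosomes are attached to the spindle, and Fbxo5 (Emi1) holds the APC/C inactive earlier, in S and G2 phase. Gfi1 is a zinc-finger repressor that binds Lsd1 through its SNAG domain, and Lsd1 removes methyl groups from histone H3.

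The lists hold 36836 Gfi1 peaks in tumor 39, 25078 Gfi1 peaks in tumor 41, 30367 Lsd1 peaks in tumor 39 and 33213 Lsd1 peaks in tumor 41. Each peak has a score from the authors, which ranks peaks within a list and whose definition is not given in the sources used here. The score is therefore given below mainly as a percentile within its own list, where 100 is the highest, and a gene is described by its best peak, the one with the highest score within 1000 bp of any of its transcription start sites (TSSs). For Gfi1 the upper 20% began at a score of 1017 (tumor 39) and 506 (tumor 41), and for Lsd1 at 736 and 950. Tied scores shared a percentile: 910, 13, 138 and 488 peaks of these lists, in the same order, had a score of 3100 or more. The lists carry no read counts, so the number of reads under a peak is unknown. The paper gives the mapped reads of each library, and the scores were not adjusted for them here. Tumor is the replicate, and 2 libraries against 2 cannot give an exact two-sided permutation p-value under 0.333. For this reason no test was run, and values are given by library, with the SD over the 2 tumors (n = 2) as their error.

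The Gfi1 libraries did not rank most like each other. Over the 47 genes, the percentile of Gfi1 in tumor 39 ranked most like that of Lsd1 in tumor 41 (Spearman's rho 0.868), against 0.795 for Lsd1 of its own tumor and 0.745 for Gfi1 of the other tumor. Likewise, Gfi1 in tumor 41 ranked most like Lsd1 in tumor 39 (rho 0.866). The Lsd1 libraries ranked most like each other (rho 0.937). Over the 11653 coding genes with a TSS peak in all 4 libraries, Gfi1 in tumor 39 also ranked most like Lsd1 in tumor 41, with a rho of 0.837, against 0.761 and 0.774. Gfi1 in tumor 39 and Lsd1 in tumor 41 are also the 2 longer lists. By the paper's counts they are the 2 libraries with the fewest mapped reads as well. The part of list length or of depth in this was not tested, and the design cannot tell them apart.

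Promoters at both ends of the range are shown first, since the comparisons below are between them. Each sequence runs from 250 bases before to 30 bases after the RefSeq start on GRCm38.p6, written 5′ to 3′ on the gene's strand, and capitals mark every CCAAT (or ATTGG on the other strand), TTTGAA (or TTCAAA) and TTTAAA. These letters are the CCAAT box, bound by NF-Y, and the core of the cell cycle genes homology region (CHR), the element through which the DREAM and MuvB complexes regulate many mitotic genes. Fbxo5, Fzr1 and Anapc13 are APC/C genes with high-ranking peaks, Bub1 and Cenpe are spindle and kinetochore genes with low-ranking peaks, and Ccnb1 is a cyclin gene at which Gfi1 ranked above Lsd1.
Fbxo5, chr10:5805436-5805715, minus strand: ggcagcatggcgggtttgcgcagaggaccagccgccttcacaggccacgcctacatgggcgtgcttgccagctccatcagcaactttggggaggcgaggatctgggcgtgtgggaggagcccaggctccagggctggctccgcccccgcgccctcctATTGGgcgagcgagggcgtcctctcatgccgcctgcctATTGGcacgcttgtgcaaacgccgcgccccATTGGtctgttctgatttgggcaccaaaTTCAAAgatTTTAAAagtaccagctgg
Fzr1, chr10:81378341-81378620, minus strand: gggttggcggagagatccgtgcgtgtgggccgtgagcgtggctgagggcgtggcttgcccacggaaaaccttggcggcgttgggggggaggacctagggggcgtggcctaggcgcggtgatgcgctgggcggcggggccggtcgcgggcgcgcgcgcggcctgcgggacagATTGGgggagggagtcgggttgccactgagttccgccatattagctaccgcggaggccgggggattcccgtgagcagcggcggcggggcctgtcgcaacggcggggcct
Anapc13, chr9:102626046-102626325, plus strand: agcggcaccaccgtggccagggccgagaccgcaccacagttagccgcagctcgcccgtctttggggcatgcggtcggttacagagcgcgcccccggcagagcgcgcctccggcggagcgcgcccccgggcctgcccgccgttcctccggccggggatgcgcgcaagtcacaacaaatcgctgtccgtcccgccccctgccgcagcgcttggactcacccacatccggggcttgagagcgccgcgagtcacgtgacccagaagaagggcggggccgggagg
Ccnb1, chr13:100786457-100786736, minus strand: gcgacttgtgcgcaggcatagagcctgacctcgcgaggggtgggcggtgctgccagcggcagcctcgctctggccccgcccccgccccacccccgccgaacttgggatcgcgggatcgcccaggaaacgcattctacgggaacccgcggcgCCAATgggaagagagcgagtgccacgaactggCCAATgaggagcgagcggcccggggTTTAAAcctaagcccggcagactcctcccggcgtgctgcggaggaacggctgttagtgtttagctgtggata
Bub1, chr2:127831830-127832109, minus strand: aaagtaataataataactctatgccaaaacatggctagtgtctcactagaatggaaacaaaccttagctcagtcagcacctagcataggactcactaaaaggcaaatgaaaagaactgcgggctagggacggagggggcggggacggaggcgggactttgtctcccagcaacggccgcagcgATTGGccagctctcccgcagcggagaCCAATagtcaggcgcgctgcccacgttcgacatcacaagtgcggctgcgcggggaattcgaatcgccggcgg
Cenpe, chr3:135212313-135212592, plus strand: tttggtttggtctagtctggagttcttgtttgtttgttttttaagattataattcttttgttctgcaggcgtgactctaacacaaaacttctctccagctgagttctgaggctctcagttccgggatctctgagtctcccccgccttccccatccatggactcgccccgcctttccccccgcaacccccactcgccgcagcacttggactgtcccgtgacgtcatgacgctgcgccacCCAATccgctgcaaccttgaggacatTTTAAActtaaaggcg

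In the Fbxo5 promoter CCAAT matches began 93, 55 and 25 bases before the start, TTTGAA began at the base numbered 4 after it and TTTAAA at the base numbered 13, where 1 is the first transcribed base. The RefSeq start of Fbxo5 lies 135 bp downstream of the GENCODE start, and the peaks of all 4 libraries cover both. Anapc13, also in the upper 20% in all 4 libraries, held none of these letters in the stretch shown. Bub1 had 2 CCAAT matches and no CHR match.

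Every one of the 47 genes had a Gfi1 peak and an Lsd1 peak at a TSS in both tumors. Among all coding genes, a Gfi1 peak at a TSS was found in 65.0% in tumor 39 and 54.3% in tumor 41, and an Lsd1 peak in 58.5% and 61.7%. A Gfi1 peak in both tumors was found in 53.9%, an Lsd1 peak in both tumors in 57.7%, and a peak in all 4 libraries in 53.1%. CpG-rich promoters had a peak in all 4 libraries more often, in 85.0% of 11236 genes. Of the 47 genes, 43 (91.5%) had a CpG-rich promoter at 1 or more of their TSSs, against 51.2% of all coding genes, and the 4 without one were Cdk1, Cdc25c, Pttg1 and Cdc25b. The Gfi1 and Lsd1 peaks of a tumor overlapped at all 47 genes in both tumors, beside 53.0% of all coding genes and 85.0% of CpG-rich ones. Over all coding genes these were 11628 of the 11653 with a peak in all 4 libraries. Overlap was thus found at nearly every gene with such peaks and is not particular to the 47.

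The genes differed in how high their peaks ranked. An upper 20% Gfi1 peak in both tumors was found at 19 of the 47 genes, beside 23.3% of all coding genes. Without Gfi1 in tumor 41 this count was 34, beside 7946 of the 21938 coding genes and 7304 of the 11236 CpG-rich ones. An upper 20% Lsd1 peak in both tumors was found at 25, beside 26.1%. In all 4 libraries at once the count was 16 (34.0%), beside 19.9% of all coding genes and 35.6% of CpG-rich ones, so that the 47 genes as a whole stood near the share of CpG-rich promoters. In tumor 39 their median percentile was 85.1 in the Gfi1 list and 81.3 in the Lsd1 list, and in tumor 41 it was 79.4 and 82.4. For all coding genes with a peak these medians were 82.5, 79.0, 77.4 and 81.0. For CpG-rich coding genes with a peak they were 86.0, 81.8, 80.2 and 84.1, above those of the 47 genes in each list.

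Within the 47 genes the upper 20% peaks gathered at the APC/C. Of the 19 APC/C genes, 13 (68.4%) had an upper 20% peak in all 4 libraries, against 1 of the 17 spindle and kinetochore genes (5.88%) and 2 of the other 11. The share differed between APC/C and spindle and kinetochore genes by 62.5 percentage points, and by 31.9 for the 2 libraries of tumor 39 alone and 67.2 for those of tumor 41 (SD 24.96, n = 2). Fbxo5, chosen by the study as bound by Gfi1 on these samples, is among the 13. With only the 14 subunits as the APC/C class, so without Fbxo5, the coactivators and the E2 enzymes, the difference was 51.3 points. No APC/C gene lacked an upper 20% peak in every library, whereas 5 spindle and kinetochore genes (29.4%) and 5 of the others did. Among CpG-rich coding genes the share with none was 30.04%, close to that of the spindle and kinetochore genes. Among all coding genes it was 59.8%. By library, in the order Gfi1 in tumors 39 and 41 and Lsd1 in tumors 39 and 41, an upper 20% peak was present at 18, 15, 16 and 18 APC/C genes and at 10, 3, 10 and 7 spindle and kinetochore genes. Over all 21938 coding genes these counts were 7946, 5393, 6168 and 7056, and over the 11236 CpG-rich ones 7304, 4855, 5482 and 6365. Gfi1 in tumor 41 was thus the library with the fewest spindle and kinetochore genes. Without it, 15 APC/C genes and 5 spindle and kinetochore genes were in the upper 20% of the other 3 libraries, and without Gfi1 in tumor 39 the counts were 14 and 2. The shares of all coding genes were 24.6% and 20.4%, and those of CpG-rich ones 44.0% and 36.2%.

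**Figure D1:**
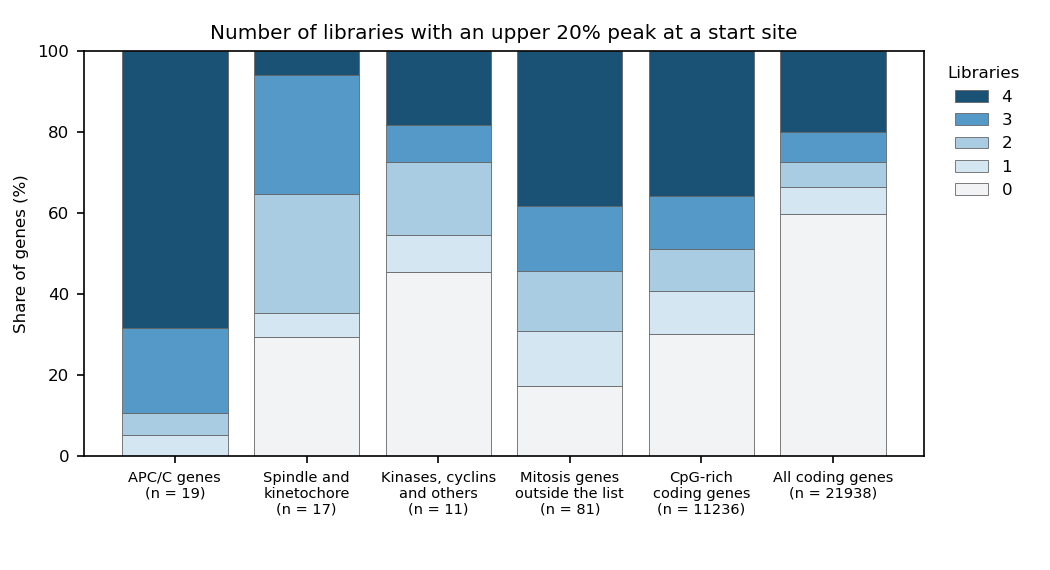
Share of genes (%) by the number of libraries, from 0 to 4, in which the best peak at a TSS was in the upper 20% of its list, for the 3 classes of the 47 genes and 3 sets for comparison, with n under each bar. The darkest segment, 4 libraries, is 68.4% of the APC/C genes, 5.88% of the spindle and kinetochore genes and 35.6% of CpG-rich coding genes.

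At the APC/C genes the median percentile in tumor 39 was 91.8 (Gfi1) and 90.3 (Lsd1), and at the spindle and kinetochore genes it was 81.2 and 80.3. In tumor 41 the medians were 90.2 and 89.97 at the APC/C genes and 75.4 and 78.8 at the spindle and kinetochore genes. APC/C genes were therefore higher in each of the 4 libraries. Medians of CpG-rich coding genes with a peak lay between those of the classes, at 86.0 (Gfi1) and 81.8 (Lsd1) in tumor 39 and 80.2 and 84.1 in tumor 41. With the percentile of each gene first averaged over the tumors, the medians differed by 11.3 percentile points for Gfi1 (10.6 in tumor 39 and 14.8 in tumor 41 taken alone, SD 2.97, n = 2) and 12.2 for Lsd1 (10.0 and 11.2, SD 0.812, n = 2). Both differences were larger than the spread between the tumors. The classes overlapped gene by gene, since the mean percentile over the 4 libraries ran from 73.0 to 98.0 at APC/C genes and from 61.5 to 87.3 at spindle and kinetochore genes.

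**Figure D2:**
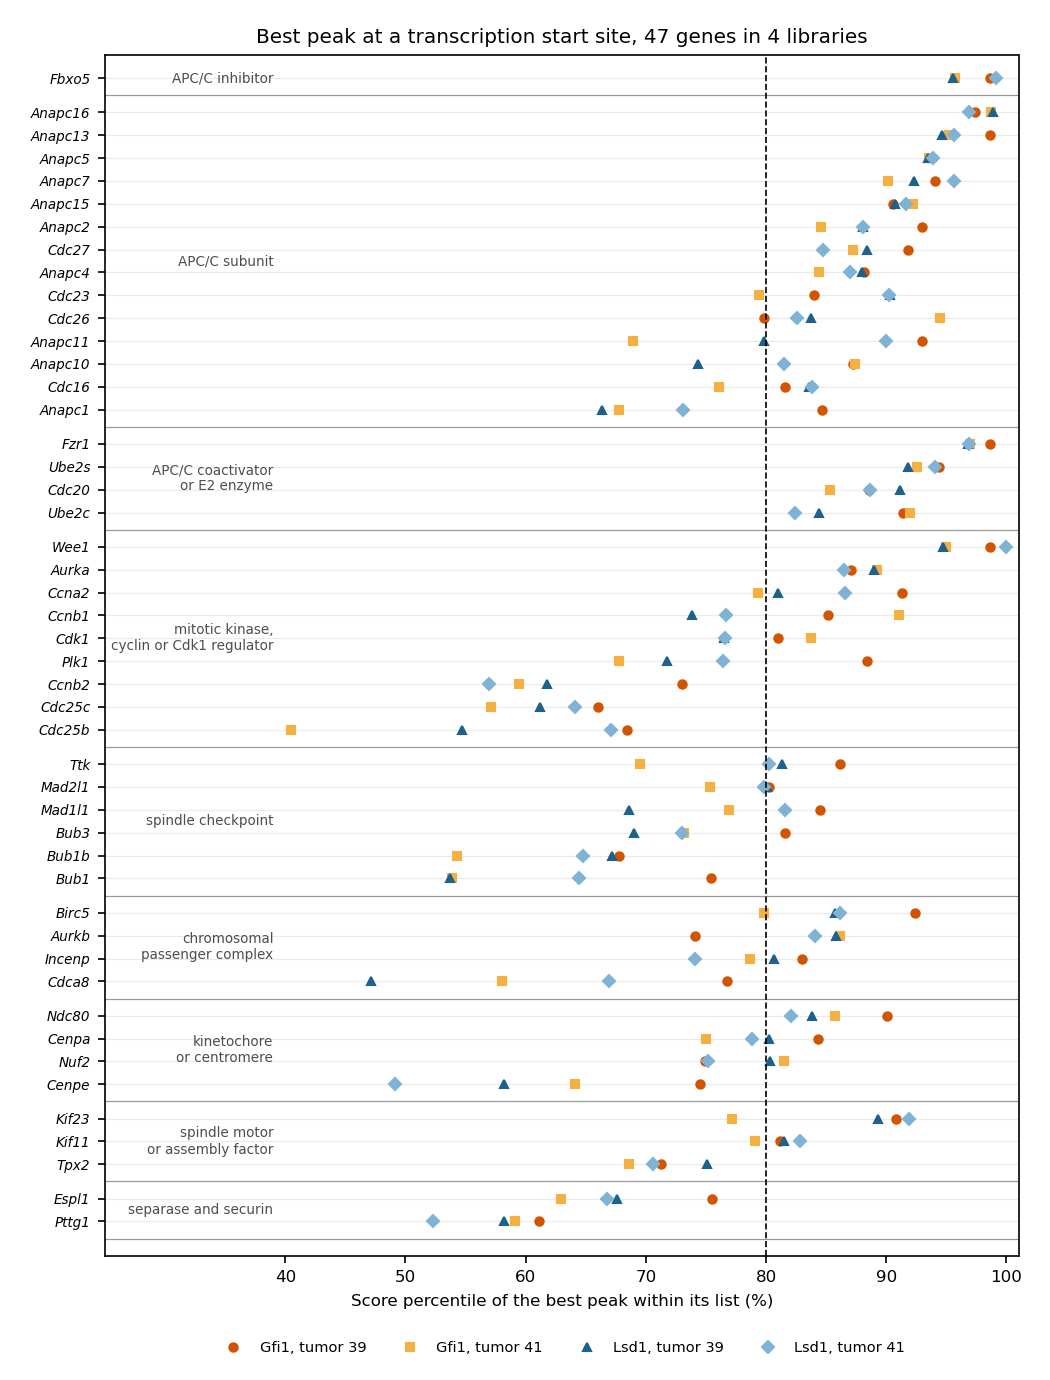
Score percentile (%) of the best TSS peak within its list for each of the 47 genes, by role, with 1 point for each of the 4 libraries and a dashed line at the 80th percentile, where the upper 20% begins. All points of Fbxo5 and of the 4 coactivator and E2 genes lie right of the line, and all points of Espl1 and Pttg1 lie left of it.

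Fbxo5 (ENSMUSG00000019773), the APC/C inhibitor, spans chr10:5799160-5805600 on the minus strand. It was chosen by the study as a gene bound by Gfi1 on these samples, so its peaks are no independent evidence of its rank. Its Gfi1 peak scored 3100 in tumor 39 (98.6th percentile) and 1062 in tumor 41 (95.7th), and its Lsd1 peak 1555 in tumor 39 (95.5th) and 3100 in tumor 41 (99.2nd). The peak lay at chr10:5804246-5806715 in the Gfi1 list of tumor 39, with its midpoint 119.5 bp downstream of the GENCODE start, and it was 2470, 2301, 2609 and 2514 bp wide in the order of libraries used above. Its width was close to the median of the 47 genes, while its rank was near the top of each list. The gene body held 1 further peak, of Lsd1 in tumor 39, at the 13.5th percentile.

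Among the 14 subunits, Anapc16, a small subunit of the complex, ranked highest. Its Gfi1 percentile was 97.4 in tumor 39 and 98.7 in tumor 41, its Lsd1 percentile was 98.9 and 96.9, and its best peaks were 3633 to 4435 bp wide. Anapc13, which steadies the tetratricopeptide-repeat (TPR) subunits, was at 98.6 and 95.2 for Gfi1 and 94.6 and 95.6 for Lsd1. Anapc5, of the platform of the complex, differed little between libraries, at 93.8 and 93.6 for Gfi1 and 93.4 and 93.9 for Lsd1. Anapc7, a TPR subunit, had a mean percentile of 93.1, and Anapc15, which takes part in the turnover of the checkpoint complex on the APC/C, had 91.3. The catalytic pair, the cullin Anapc2 and the RING subunit Anapc11, differed from each other. Anapc2 was in the upper 20% in all 4 libraries, with a mean of 88.4. Anapc11 was so in 2 libraries, at 92.9 and 69.0 for Gfi1 and 79.8 and 89.97 for Lsd1, and went in opposite directions in the 2 tumors.

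The TPR subunits Cdc27, Cdc23 and Cdc16, which hold the coactivators, had means of 88.0, 86.0 and 81.3. Cdc26, which supports Cdc16, had 85.1, Anapc4 of the platform 86.9, and Anapc10, a co-receptor of substrates, 82.6. Anapc1, the largest scaffold of the complex, ranked lowest of the subunits, at 84.7 and 67.7 for Gfi1 and 66.4 and 73.1 for Lsd1. It was the APC/C gene with the fewest upper 20% peaks, 1 of 4 libraries. In all, 8 of the 14 subunits were in the upper 20% in all 4 libraries.

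The 4 genes that drive the complex were all in the upper 20% in every library. Fzr1 (Cdh1), the coactivator of late mitosis and G1, had Gfi1 peaks at the 98.6th and 96.9th percentiles and Lsd1 peaks at the 96.8th and 96.9th. It also had the widest peaks of the 47 genes on average, at 4190, 4567, 5691 and 4595 bp. Ube2s, the E2 that extends ubiquitin chains, had a mean percentile of 93.2. Cdc20, the coactivator of metaphase, had 88.4. Ube2c, the E2 that starts the chains, was the lowest of the 4 on average, at 91.4 and 92.0 for Gfi1 and 84.4 and 82.4 for Lsd1.

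Securin and separase were in the upper 20% in no library. Securin (Pttg1), which the APC/C destroys to free separase, was at 61.1 and 59.1 for Gfi1 and 58.2 and 52.3 for Lsd1, and separase (Espl1), the protease that cuts cohesin, at 75.5 and 63.0 for Gfi1 and 67.6 and 66.8 for Lsd1. Of the cyclins, Ccnb2 had a mean of 62.8 and no upper 20% peak, Ccnb1 had 81.7 and Ccna2 84.5. Aurka, a spindle kinase, was in the upper 20% in all 4 libraries with 87.9, whereas Plk1, a kinase of mitotic entry and exit, was so in 1 library with 76.1.

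The regulators of Cdk1, the kinase that drives mitosis, held both ends of the range. Wee1, which inhibits Cdk1, was at 98.6 and 94.9 for Gfi1 and 94.8 and 99.98 for Lsd1. The listed phosphatases that activate Cdk1, Cdc25c and Cdc25b, were lower. Their relative Cdc25a, which is outside the list, had a mean of 94.5 and an upper 20% peak in all 4 libraries. Cdc25c was at 66.0 and 57.1 for Gfi1 and 61.2 and 64.1 for Lsd1. Cdc25b scored 476 for Gfi1 in tumor 39 and 125 in tumor 41, its percentiles being 68.4 and 40.4, and its Lsd1 peaks were at 54.7 and 67.1. Every peak at Cdc25b and Cdc25c ranked below every peak at Wee1. Cdk1 itself was at 81.0 and 83.7 for Gfi1 and 76.5 and 76.5 for Lsd1, with peaks of 4139 and 5697 bp in tumor 39 but 2673 and 2791 bp in tumor 41. In tumor 41 a further peak stood just downstream of the main one in both lists, at the 22.2nd percentile for Gfi1 and the 35.1st for Lsd1.

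No spindle checkpoint gene was in the upper 20% in all 4 libraries. Ttk (Mps1), the kinase at the head of the checkpoint, ranked highest of the 6 on average, at 86.2 and 69.5 for Gfi1 and 81.3 and 80.2 for Lsd1. Mad2l1, the protein that binds Cdc20, had a mean of 78.9, its partner Mad1l1 77.9 and Bub3, which brings Bub1 to kinetochores, 74.2. The kinase Bub1 was lowest, with scores of 770 and 191 for Gfi1 and 241 and 419 for Lsd1, at percentiles of 75.4, 53.9, 53.7 and 64.4. Bub1b (BubR1), part of the complex that inhibits Cdc20, had 63.5, and neither Bub1 nor Bub1b reached the upper 20% in any library. Bub1b was also the gene at which the best Gfi1 and Lsd1 peaks of tumor 41 did not touch: 2 Gfi1 peaks at the 53.5th and 54.3rd percentiles stood side by side at its TSSs, and the lower 1 was the one under the best Lsd1 peak.

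In the chromosomal passenger complex, Birc5 (survivin) was highest on average, at 92.4 and 79.8 for Gfi1 and 85.7 and 86.2 for Lsd1. Aurkb, its kinase, had a mean of 82.5, Incenp, its scaffold, 79.1, and Cdca8 (borealin) 62.2. In tumor 39, Cdca8 was at 76.8 for Gfi1 and 47.2 for Lsd1, and in tumor 41 at 58.0 and 67.0. Its tumor 39 values were the widest gap between the factors within a tumor at any of the 47 genes. At the kinetochore, Ndc80, which binds microtubules, was the 1 gene of its class in the upper 20% of all 4 libraries, at 90.1 and 85.8 for Gfi1 and 83.8 and 82.1 for Lsd1. Nuf2, its partner in the same complex, had a mean of 78.0, the centromeric histone Cenpa 79.6 and the kinesin Cenpe 61.5. Of the spindle genes, Kif23, a kinesin of cytokinesis, was at 90.8 and 77.2 for Gfi1 and 89.3 and 91.9 for Lsd1. Kif11, the kinesin that pushes the poles apart, had a mean of 81.1. The assembly factor Tpx2 had no upper 20% peak, at 71.2 and 68.6 for Gfi1 and 75.1 and 70.6 for Lsd1.

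Mitosis genes outside the list were examined in the same way. They hold no APC/C subunit, coactivator or E2, but do hold an APC/C inhibitor, Fbxo43 (Emi2), with a mean percentile of 55.3 and no upper 20% peak. There were 81 such genes, taken from textbook complexes, and 96.3% of them were CpG-rich. A peak in all 4 libraries was found at 78 (96.3%), beside 53.1% of all coding genes and 85.0% of CpG-rich ones. The exceptions were Ccnb3 with none, Ccna1 with a peak in 1 library and Ska1 in 3. An upper 20% peak in all 4 libraries was found at 31 (38.3%). Among these, 13 of 33 kinetochore and centromere genes (39.4%) and 6 of 19 spindle and cytokinesis genes (31.6%) were in the upper 20% of all 4, beside the 5.88% of the 17 listed spindle and kinetochore genes and the 35.6% of CpG-rich coding genes. Mean percentiles of the kinetochore and centromere genes with a peak in all 4 libraries ran from 37.05 (Cenpi) to 96.6 (Mis12, a kinetochore linker). Their median was 83.0, and Ska2, of the outer kinetochore, was near the top with 95.9. The cohesin and condensin group had 6 of 17 and the regulators of mitotic entry and exit 6 of 12.

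Peaks were also wider at APC/C genes than at spindle and kinetochore genes. The median width at APC/C genes was 2496 and 2457 bp for Gfi1 and 2913 and 2873 bp for Lsd1, in tumors 39 and 41. At spindle and kinetochore genes it was 1799 and 1830 bp for Gfi1 and 2324 and 1986 bp for Lsd1, and over all coding genes with a peak 2086, 2185, 2516 and 2380 bp, in the order of libraries. The other 11 genes, whose median percentile was below that of the spindle and kinetochore genes in each library, had medians of 2192, 2122, 2164 and 2117 bp, wider than the spindle and kinetochore genes in 3 of the 4 libraries. With the width of each gene first averaged over the tumors, the median APC/C peak was wider by 566.5 bp for Gfi1 (697 and 627 bp, SD 49.5, n = 2) and by 729 bp for Lsd1 (589 and 887 bp, SD 211, n = 2). Width and percentile share a peak call and a depth, and over the 47 genes their rho was 0.482 and 0.682 for Gfi1 and 0.615 and 0.761 for Lsd1.

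**Figure D3:**
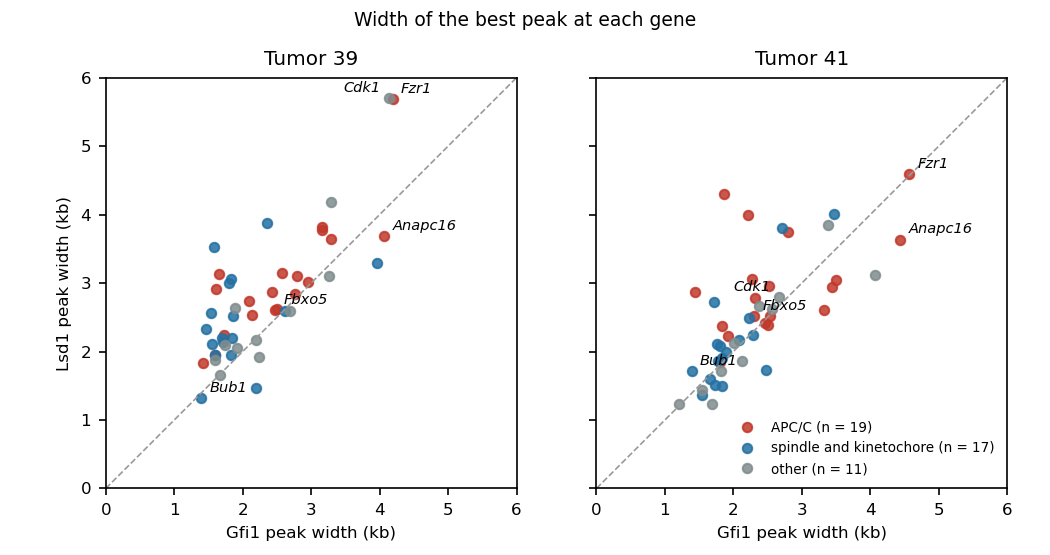
Width of the best Gfi1 peak (x axis, kb) against that of the best Lsd1 peak (y axis, kb) at each of the 47 genes, in tumor 39 (left) and tumor 41 (right), colored by class, with equal widths on the dashed line. Points above the line have a wider Lsd1 peak, 37 genes in tumor 39 and 29 in tumor 41.

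Lsd1 peaks were the wider ones at 37 of 47 genes in tumor 39 and 29 in tumor 41, where the shares over all coding genes were 73.0% and 69.3%. The best peaks of both factors covered much the same DNA. In tumor 39 the overlap made up a median of 100% of the Gfi1 peak and 81.8% of the Lsd1 peak, and in tumor 41 96.1% and 89.9%. Every best peak covered a TSS of its gene. It covered the 5′-most TSS at 45, 44, 45 and 45 genes, in the order of libraries, and the exceptions were Anapc15 and Cdca8 in all 4 lists and Bub1b for Gfi1 in tumor 41. The midpoints lay a median of 135.5 and 195.5 bp downstream of that TSS for Gfi1 and 95 and 114.5 bp for Lsd1.

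The factor that ranked higher at most genes was not the same in the 2 tumors. Gfi1 had the higher percentile at 36 of 47 genes in tumor 39 and at 18 in tumor 41, and all coding genes showed the same shift, with 70.9% and 29.4%. In each tumor this was the factor with the longer list, Gfi1 in tumor 39 and Lsd1 in tumor 41. It was also the factor with fewer mapped reads by the paper's counts. The part of list length or of depth was not tested. At 24 genes (51.1%) Gfi1 was higher in tumor 39 and Lsd1 in tumor 41, beside 50.8% of all coding genes. Gfi1 was higher in both tumors at 12 genes and Lsd1 at 5. Of the 11653 coding genes with a TSS peak in all 4 libraries, these numbers were 2344 and 2312. Cenpe showed the largest difference of the first kind, at 74.5 and 64.1 for Gfi1 against 58.2 and 49.1 for Lsd1, which is 16.2 points in tumor 39 and 14.97 in tumor 41. Ccnb1, which makes cyclin B1, followed with 11.3 and 14.4 points, and Anapc10 with 12.9 and 6.0 points. Ccnb1 was at 85.1 and 91.1 for Gfi1 against 73.8 and 76.7 for Lsd1.

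The genes at which Lsd1 ranked higher in both tumors included 3 APC/C genes. At Cdc23 the Gfi1 minus Lsd1 difference was -6.27 and -10.8 points, at Cdc16 -2.00 and -7.71, and at Cdc20 -2.56 and -3.31. Kif11 and Tpx2 were the other two. With 2 tumors and a shift of all genes between them, these 17 genes are given as a description.

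**Figure D4:**
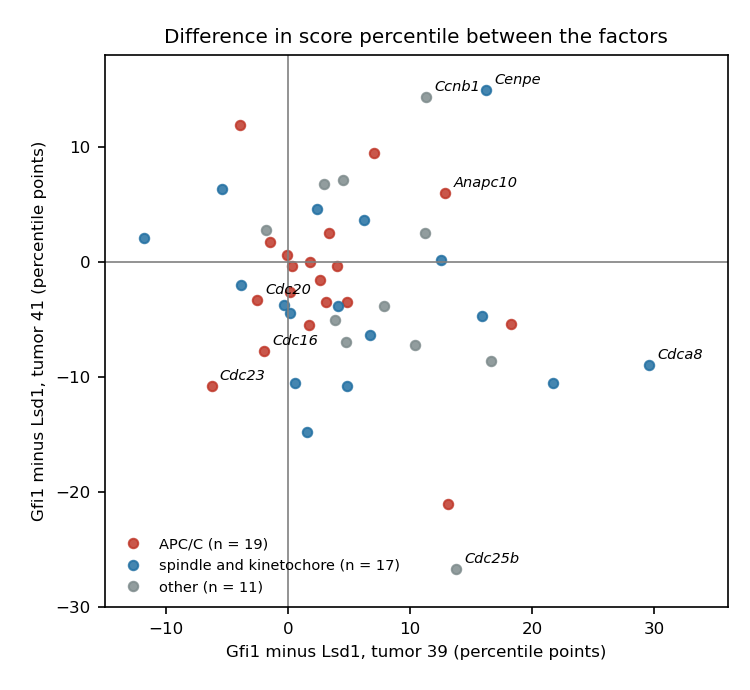
Gfi1 minus Lsd1 score percentile of the best TSS peaks (percentile points) in tumor 39 (x axis) and tumor 41 (y axis), with 1 point for each of the 47 genes, colored by class. The lower right field, Gfi1 higher in tumor 39 and Lsd1 higher in tumor 41, holds 24 genes, and Cenpe and Ccnb1 lie farthest to the upper right.

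Some of these promoters serve another gene as well. A TSS of another coding gene lay within 1000 bp of the 5′-most TSS at 12 of the 47 genes (25.5%), beside 13.8% of all coding genes, and in each case on the opposite strand. Of these, 8 were APC/C subunits. Anapc2 stood 40 bp from Ssna1, Cdc27 43 bp from Myl4, Anapc11 56 bp from Alyref, Anapc10 80 bp from Abce1, Cdc26 155 bp from Prpf4, Anapc13 172 bp from Cep63 and Anapc16 192 bp from Ascc1. Their peaks cannot be assigned to 1 gene of the pair. For Anapc15 and Cdca8 the 5′-most TSS is not the one under the peak, so their neighbors, Folr1 and 9930104L06Rik, do not share it. The others were Aurka with Cstf1, Mad1l1 with Nudt1 and Cdc25b with Spef1.

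Over all coding genes, 48.4% of those with such a neighbor had an upper 20% peak in all 4 libraries, against 15.3% of those without. Among APC/C genes the shares were 5 of 8 with a neighbor and 8 of 11 without, and among spindle and kinetochore genes 0 of 2 and 1 of 15. The split goes by the 5′-most TSS. It therefore counts Anapc15, 1 of those 5, and Cdca8 as having a neighbor, although that neighbor does not share the start under their peaks. Without the genes that have a coding neighbor, a choice made after seeing the data, the class difference in the median percentile was 13.5 points for Gfi1 and 10.7 for Lsd1.

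Aurkb lay between peaks that ranked higher than its own. The peaks over its TSSs were at the 74.1st and 86.2nd percentiles for Gfi1 and the 85.8th and 84.1st for Lsd1. Upstream, at 3395, 3569, 2777 and 3354 bp from the closest Aurkb TSS in the order of libraries, stood peaks at 98.6, 99.998, 99.7 and 99.2. In 3 lists this peak came within 1000 bp of a TSS of Ctc1, a telomere maintenance gene, and in the Gfi1 list of tumor 39 it was split, with the lower part, at 78.9, next to Ctc1. On the other side, 7529 to 7825 bp from the closest Aurkb TSS, a peak at the TSSs of Borcs6 and 9330160F10Rik was at 98.6, 99.7, 97.8 and 99.2.

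**Figure D5:**
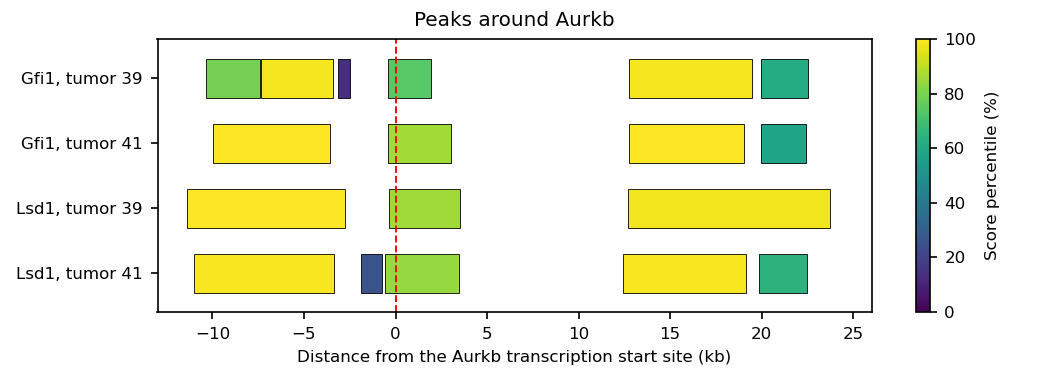
Peaks around Aurkb by distance from its 5′-most TSS (kb, dashed line at 0, transcription to the right), with 1 row for each library and the color giving the score percentile (%). The peak over the TSS is between 74.1 and 86.2 in the 4 lists, and the brighter peaks on both sides are at 97.8 or more.

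Gene bodies held few peaks away from a TSS, none of them above the 65.6th percentile. Mad1l1, the longest of the 47 genes, spanning chr5:140008689-140321552, had 28 of the 55 such peaks. A site of it was found in all 4 lists, at chr5:140281892-140283297 in the Gfi1 list of tumor 39, at percentiles of 63.0 and 57.8 for Gfi1 and 65.6 and 62.1 for Lsd1. Espl1 also had an internal site in all 4 lists, at the 12.05th to 49.5th percentiles. Cenpe had a site near its 3′ end in both Lsd1 lists, at 56.4 and 40.3, and in neither Gfi1 list.

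RefSeq promoters, from 250 bases before to 50 after the start, were matched for 40 of the 47 genes. Those of Cdc23, Ccna2, Cdc25c, Wee1, Aurkb, Incenp and Tpx2 were not matched. A CHR core, TTTGAA or TTTAAA on either strand, was found in 21 of 40 (52.5%), beside 24.6% of 16539 coding promoters and 16.9% of CpG-rich ones. CCAAT was found in 24 (60%), beside 38.7%, and 2 or more of them in 14 (35%), beside 13.2%. AAATCAC, the core of the Gfi1 motif, was found in 1 of 40 promoters (2.5%), that of Cenpa, beside 2.84% of all. TTTGAA and TTTAAA cannot overlap each other, while CCAAT and AAATCAC can share up to 3 bases at an end with them.

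The classes differed in these letters in the other direction from their peaks. A CHR core was present in 10 of 14 spindle and kinetochore promoters (71.4%) and 5 of 18 APC/C promoters (27.8%). The share was 24.6% of all promoters and 16.9% of CpG-rich ones, and all 19 APC/C genes were CpG-rich. The 5 APC/C genes were Fbxo5, Anapc7, Anapc16, Cdc20 and Ube2c, and all 5 had an upper 20% peak in all 4 libraries, as did 8 of the 13 APC/C genes with no such match. Among spindle and kinetochore genes the counts were 1 of 10 with a match and 0 of 4 without. Over all coding promoters, the share in the upper 20% of all 4 libraries was 13.7% with a CHR core and 23.8% without, and in CpG-rich promoters 34.2% and 37.5%. A match is a run of letters and not a measured site, and CpG content moves with both the letters and the peaks.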

How the data were processed

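Gfi1 and Lsd1 ChIP-seq was done on 2 MG tumors, and same-numbered libraries come from the same tumor, which pairs them. The authors aligned reads to mm10 with BWA 0.6.2, merged files with Picard and removed duplicate reads. Peaks were called in each library against input chromatin by MACS, with its default settings. FastQC is also named in the submitters' processing notes. Each deposited peak list gives a position and the authors' score for each peak. The definition of the score is not given in the sources used here. A peak caller's score depends on depth and on the input, so that scores were compared only as mid-rank percentiles within a list.

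Starting from the deposited lists, a peak was at a gene when it came within 1000 bp of a TSS of any transcript in GENCODE M21, and the gene was described by its highest-scoring such peak. Peaks overlapped at 1 bp or more. A gene was CpG-rich with at least 50% GC and an observed to expected CpG ratio of at least 0.6 within 500 bp on either side of 1 or more of its TSSs. Promoter sequences are from the RefSeq table for GRCm38.p6. Intervals and tests were not computed, because the lists carry no read counts and the tumor is the replicate. The assignment of peaks was tested on simulated data. Values were computed with numpy 2.4.6 and scipy 1.17.1 under Python 3.11.15 and plotted with matplotlib 3.10.9.

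The genes, their classes and the lists used here were chosen with earlier results of these data known. The grouping of the 81 other mitosis genes and the counts by CHR match were set after their values were seen. Values are printed by library for Fbxo5, for the 6 genes of highest and the 6 of lowest mean percentile, for the 3 genes with the largest difference between the factors of the same sign in both tumors in each direction (for Anapc10, Cdc23, Cdc16 and Cdc20 as that difference in each tumor), for the 3 widest peaks, for the highest and lowest gene of each role, and for Aurkb because of its neighboring peaks. Other genes were named by their mean, except Anapc11 and Bub1b, which were singled out after their values were seen. Alternatives varied the window, the TSSs, the score cutoff, the overlap, the reference of the percentile, the classes, the pairing of tumors and the libraries used. A further alternative, leaving out genes with a coding neighbor, was chosen after seeing the data. Expression, drug and survival experiments and the reads of the MGB input were not analysed here.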

Additional observations from a re-analysis of the deposited data

How the results depend on the processing

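Each of the 47 genes had a TSS peak in every library, so leaving out a library could not change that count. With the 5′-most TSS only, 45 genes had a peak in all 4 libraries. Pairing Gfi1 with Lsd1 of the other tumor, so without the replicate block, left 47 genes with overlapping peaks in both pairs. The cutoff moved counts most. At the upper 10%, such peaks in both tumors were found at 10 genes for Gfi1, 10 for Lsd1 and 9 for all 4 libraries, and at the upper 40% at 40, 41 and 39. At that wider cutoff the class difference in the share fell to 23.5 points. Shares of all coding genes at the upper 10% and 40% are not given here, so these counts show only how the cutoff moved them. Ranking among TSS peaks only gave medians of 66.5 (Gfi1) and 67.3 (Lsd1) and class differences of 19.7 and 22.2 points. With the 5′-most TSS only, the class difference was 10.3 points for Lsd1 and 634.5 bp in Gfi1 width. With the 14 subunits as the APC/C class it was 10.0 points and 422.5 bp. Without genes with a coding neighbor it was 10.7 points for Lsd1. Summed TSS peaks gave a Gfi1 width of 2186 bp. With each library left out in turn, the Gfi1 count ran from 19 to 34, where all coding genes gave 5111 and 7946. In these runs the median Lsd1 percentile ran from 81.3 to 83.0. The median width ran from 2047.5 to 2213 bp for Gfi1 and from 2422 to 2609 bp for Lsd1. The class difference ran from 10.6 to 14.8 points for Gfi1, from 10.0 to 12.2 for Lsd1 and from 566.5 to 697 bp in Gfi1 width. APC/C genes stayed above spindle and kinetochore genes in every alternative run. The cause of these shifts was not tested. The libraries differ in mapped reads by the paper's counts, and the number of reads under each peak is unknown. Furthermore, 2 tumors limit every spread, and the input used for each library is not given.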
